A study of Sus scrofa with 13 samples.

Results

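The 10 genes described here are autophagy and mitophagy genes of the pig: ULK1, BECN1, ATG5, ATG7, MAP1LC3B, GABARAPL1, SQSTM1, BNIP3, BNIP3L and PINK1. They were chosen by symbol, with earlier results of these data known. All 10 were found among the 25322 Ensembl genes counted in both breeds. RNA-seq was performed on longissimus lumborum muscle, the loin, of 13 female pigs aged 6 months. Of the Hampshire pigs, 3 had a high loin weight (pigs 8, 9 and 10) and 3 a low one (pigs 1, 2 and 3). Of the Pietrain pigs, 4 had a high loin weight (pigs 1, 2, 6 and 7) and 3 a low one (pigs 3, 5 and 8). The pigs were unrelated, were kept and fed alike, and were picked from a larger population for extreme loin weights within their breed, so loin weight is an observed trait and not an intervention.

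Macroautophagy delivers cell contents to the lysosome inside a double membrane, the autophagosome. A kinase complex around ULK1 starts the process, a lipid kinase complex with BECN1 marks the membrane, and a conjugation system with ATG7 and ATG5 attaches small ubiquitin-like proteins of the ATG8 family to it. Cargo receptors such as SQSTM1 bind the ATG8 proteins, and in mitophagy BNIP3, BNIP3L and PINK1 mark mitochondria for the same route. In skeletal muscle, autophagy removes damaged proteins and mitochondria, and it increases in fasting and disuse through FOXO transcription factors. RNA levels do not measure the flow of material through this pathway.

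Counted reads per pig ranged from 11312755 to 20134612. Each pig was a separate, unrelated animal and counted as 1 replicate. All 15 pairs of pigs within a group differed beyond sampling noise. Levels are given as CPM, the counts scaled to library size, with TMM normalization over the 13 pigs. They are not divided by transcript length, so levels of different genes are not compared. The pigs' labelled tissue matched its markers, since the 8 matched myofibre markers summed to 97689 to 290239 CPM, and no matched marker was at 0 in all pigs.

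Within Hampshire, the question was which of these genes differed in RNA level between pigs of high and low loin weight. GABARAPL1, MAP1LC3B and BNIP3L were higher in the high group, and the 3 were the only members that passed the test. GABARAPL1 was 2.18-fold higher, BNIP3L 1.45-fold and MAP1LC3B 1.41-fold. No member was called lower, and 9 of 10 had a fold change above 0 on the log2 scale, with a median of 0.38. Genes were called differentially expressed at an adjusted p-value under 0.05 in edgeR's quasi-likelihood test and a fold change of at least 1.2. Of all 12228 genes tested in Hampshire, 26.6% were called, 12.0% as higher and 14.6% as lower, and their median log2 fold change was 0.03. The members' count of 3 of 10 was thus near the background. The groups did not overlap for 7 members, and the same held for 45.9% of all genes tested.

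**Figure D1:**
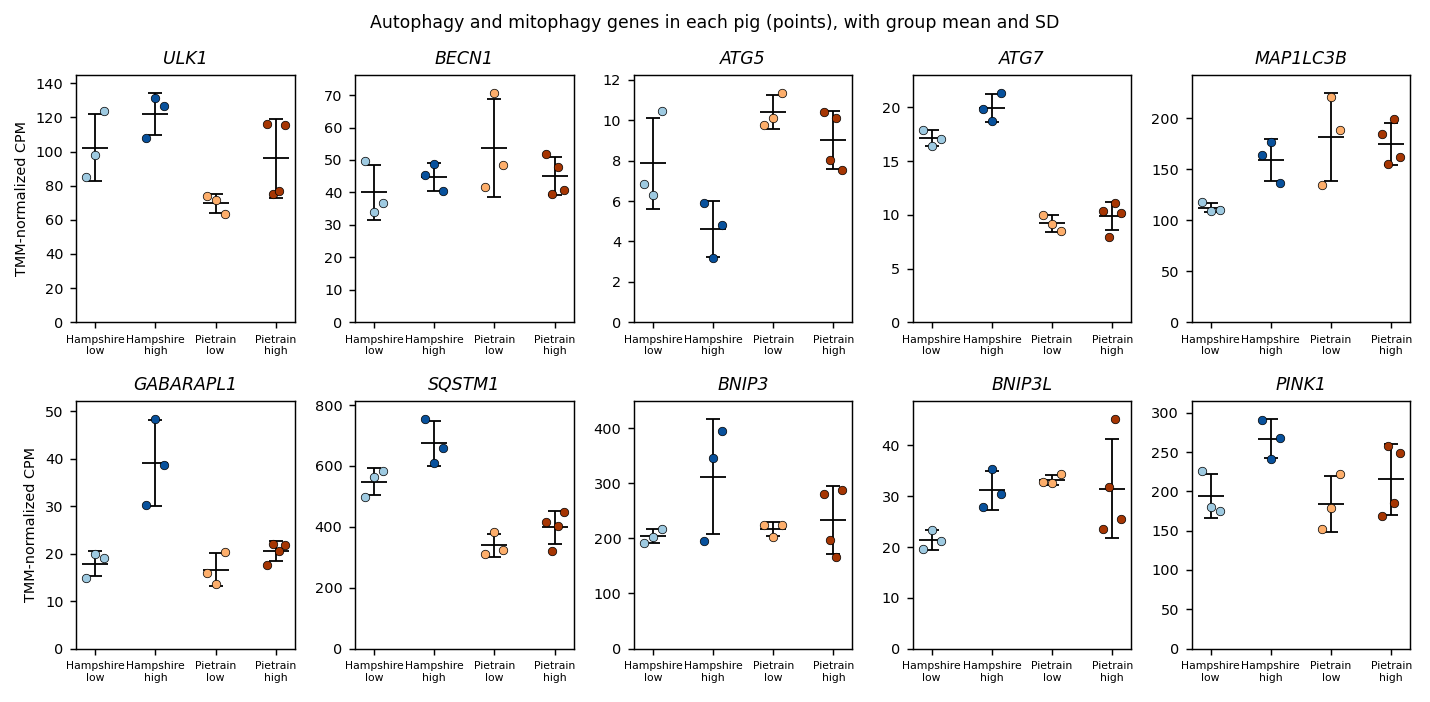
TMM-normalized CPM (vertical axis from 0) of each of the 10 genes in every pig, by breed and loin weight group, with the group mean and SD as a bar. Hampshire pigs of high loin weight stand above all others for GABARAPL1, from 30.2 to 48.4 CPM, and both Hampshire groups stand above both Pietrain groups for ATG7 and SQSTM1.

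ULK1, the kinase that starts autophagosome formation and that mTOR complex 1 holds inactive in fed cells, lies on chromosome 14 from 24875186 to 24913201 (gene identifier ENSSSCG00000009742, assembly Sscrofa10.2 as for all positions here). Its level was 85.1, 97.9 and 124 CPM in Hampshire low pigs 1, 2 and 3, and 108, 131 and 127 CPM in high pigs 8, 9 and 10. The groups overlapped, and the log2 fold change of 0.25 (SE 0.183) did not pass the test (adjusted p = 0.325). BECN1, a subunit of the class III phosphatidylinositol 3-kinase complex that makes the lipid mark of the young membrane, lies on chromosome 12 from 20256889 to 20268928 (ENSSSCG00000017386). Hampshire low pigs had 49.7, 33.8 and 36.6 CPM of BECN1 and high pigs 45.5, 48.8 and 40.3 CPM. Its log2 fold change was 0.16 (SE 0.188, adjusted p = 0.565), the smallest in size of the 10.

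The conjugation genes went in opposite directions, and neither passed the test. ATG5 forms with ATG12 and ATG16L1 the complex that attaches ATG8 proteins to lipid, and lies on the unplaced scaffold JH118901.1 from 353758 to 449236 (ENSSSCG00000004370). It measured 6.86, 6.32 and 10.4 CPM in Hampshire low pigs and 5.93, 3.18 and 4.80 CPM in high pigs. All high pigs were below all low pigs, and the log2 fold change was -0.75 (SE 0.297, adjusted p = 0.0886). ATG5 had the fewest counts of the members, from 35 to 169 reads per pig. ATG7, the enzyme that activates both ATG12 and the ATG8 proteins for conjugation, lies on chromosome 13 from 74636984 to 74916092 (ENSSSCG00000011575). Its levels of 17.9, 16.4 and 17.1 CPM in low pigs and 19.8, 18.7 and 21.4 CPM in high pigs did not overlap, but the difference was small, with a log2 fold change of 0.22 (SE 0.158, adjusted p = 0.328).

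Both ATG8 genes among the members were called higher in Hampshire pigs with high loin weight. GABARAPL1, an ATG8 protein of the GABARAP branch and a known FOXO target in muscle, lies on chromosome 5 from 64622527 to 64631775 (ENSSSCG00000000645). Hampshire low pigs 1, 2 and 3 had 14.8, 20.0 and 19.0 CPM and high pigs 8, 9 and 10 had 30.2, 48.4 and 38.7 CPM. Every high pig was above every low pig, and above every Pietrain pig as well. The log2 fold change was 1.12 (SE 0.211, adjusted p = 0.00795). Leaving out any of the 6 pigs left the call in place, with log2 fold changes from 0.91 to 1.24 and an adjusted p of at most 0.0384. MAP1LC3B encodes the LC3 protein most used as an autophagosome marker, and lies on chromosome 6 from 2007809 to 2029003 (ENSSSCG00000002655). It measured 118, 109 and 110 CPM in low pigs and 164, 177 and 136 CPM in high pigs. These groups did not overlap, and the log2 fold change was 0.49 (SE 0.157, adjusted p = 0.0469). The call for MAP1LC3B was lost in each of the 6 fits that left out 1 pig, where the adjusted p ranged from 0.0591 to 0.149 and the log2 fold change from 0.38 to 0.58.

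SQSTM1 encodes p62, the receptor that links ubiquitin-tagged cargo to ATG8 proteins and is itself degraded with it. The gene lies on chromosome 2 from 80318834 to 80329991 (ENSSSCG00000014016). Hampshire low pigs had 498, 562 and 583 CPM and high pigs 754, 610 and 659 CPM. Although the groups did not overlap, the log2 fold change of 0.30 (SE 0.166) did not pass the test (adjusted p = 0.209).

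Of the mitophagy genes, BNIP3L was called and BNIP3 and PINK1 were not, with log2 fold changes of similar size. BNIP3L, also known as NIX, is a receptor in the outer mitochondrial membrane that binds ATG8 proteins, and lies on chromosome 14 from 11483860 to 11510801 (ENSSSCG00000009658). Its levels were 19.6, 23.4 and 21.2 CPM in Hampshire low pigs and 27.8, 35.3 and 30.4 CPM in high pigs. The groups did not overlap, and the log2 fold change was 0.54 (SE 0.163, adjusted p = 0.0400). The call was lost in 5 of 6 fits without 1 pig, held only without high pig 8 (adjusted p = 0.0462), and the adjusted p reached 0.13. Both BNIP3L and MAP1LC3B also lost their call with no filter, with at least 10 counts in every pig and in the fit over 13 pigs, where the adjusted p was at most 0.0991 and 0.0889. Their log2 fold changes in those fits stayed at 0.46 to 0.54 and 0.42 to 0.50. BNIP3, its paralog and a target of hypoxia and FOXO signalling, lies on chromosome 14 from 152194734 to 152204810 (ENSSSCG00000024388). High pigs 9 and 10 had 346 and 395 CPM, whereas high pig 8 had 195 CPM, within the range of the low pigs with 192, 202 and 218 CPM. The log2 fold change of BNIP3 was 0.62 (SE 0.258, adjusted p = 0.104). Over the 6 fits without 1 pig it ranged from 0.40 to 0.83. Only the fit without high pig 8 called BNIP3 (0.83, adjusted p = 0.0174). Without high pig 10 the log2 fold change was 0.40 (adjusted p = 0.316). PINK1, the kinase that builds up on damaged mitochondria and recruits the ubiquitin ligase Parkin, lies on chromosome 6 from 73056593 to 73128343 (ENSSSCG00000003506). Low pigs had 226, 181 and 176 CPM and high pigs 291, 242 and 269 CPM, without overlap, with a log2 fold change of 0.45 (SE 0.175, adjusted p = 0.0831).

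**Figure D2:**
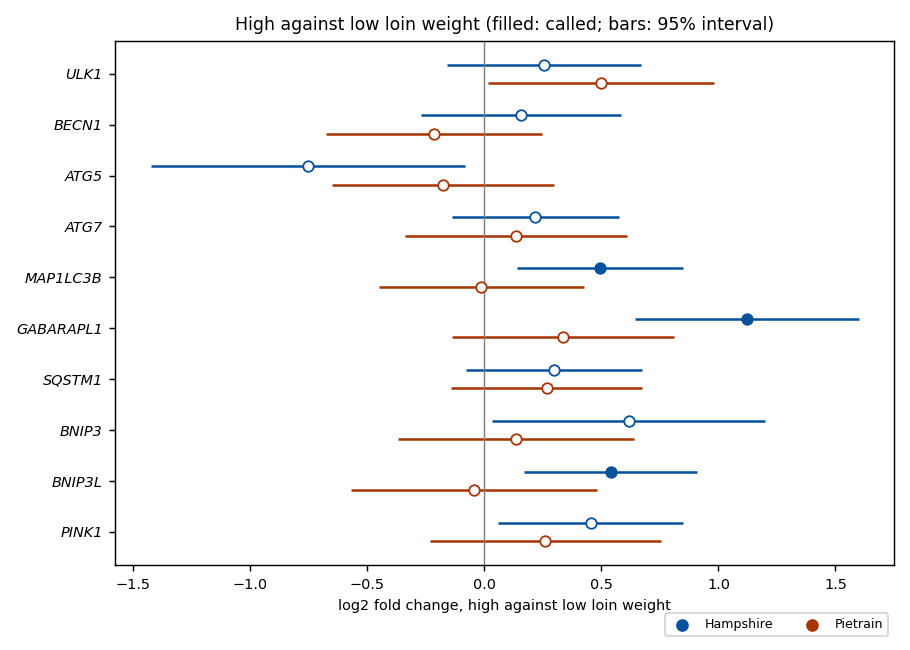
Log2 fold change of each of the 10 genes between high and low loin weight (horizontal axis) with its 95% interval, in Hampshire (blue) and Pietrain (brown), filled where called differentially expressed. GABARAPL1, MAP1LC3B and BNIP3L are filled in Hampshire, and no gene is filled in Pietrain.

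Other measures also moved between the Hampshire groups. Myofibre markers summed to 183713 to 290239 CPM in high pigs and 123313 to 166538 CPM in low pigs, without overlap, with 1 of 8 called higher, 1 lower and a median log2 fold change of 0.56. The summed level of 5 slow fibre markers was 11700 to 17800 CPM in high pigs and 2834 to 6607 CPM in low pigs, and all 5 were called higher. Fibroblast markers summed to 1965 to 5081 CPM against 760 to 1659 CPM (4 of 9 called higher), and macrophage markers to 164 to 242 CPM against 55.5 to 136 CPM (3 of 11 called higher). Adipocyte markers summed to 241 to 374 CPM against 190 to 233 CPM (3 of 6 higher, 1 lower), and endothelial markers to 188 to 213 CPM against 148 to 186 CPM (1 of 7 higher). Mitochondrial content genes, which bear on the mitophagy genes, summed to 6696 to 7711 CPM against 5184 to 6964 CPM, with 2 of 13 called higher and a median log2 fold change of 0.21. The part of these in the members' differences was not tested, and in whole muscle, fewer cells of a type and less RNA per cell cannot be told apart.

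Fold changes in Hampshire also went with gene length. Across the 81.3% of tested genes with a length, measured on the chromosome with introns, Spearman's rho between the log2 fold change and length was -0.39, a description across genes, which are not independent. The median log2 fold change was 0.48 in the shortest of 10 length bins (median 1.86 kb) and -0.34 in the longest (median 142 kb). GABARAPL1, 9.25 kb long, lay above the median of its length bin (0.28), and ATG7 (279 kb) and PINK1 (71.8 kb) above those of theirs (-0.34 and -0.35). ATG5 (-0.75 against -0.34) and BECN1 (0.16 against 0.21) lay below the medians of their bins. Each pig's length trend was then removed from the genes with a length, among them all 10 members, while other genes stayed uncorrected. In that fit, 5 of the 10 members were called, all higher, against 19.0% of all genes. They were GABARAPL1 (log2 fold change 0.91, adjusted p = 0.0181), PINK1 (0.79, adjusted p = 0.0179), BNIP3L (0.63, adjusted p = 0.0317), ATG7 (0.56, adjusted p = 0.0415) and MAP1LC3B (0.52, adjusted p = 0.0454). ATG5 then had a log2 fold change of -0.39 (adjusted p = 0.351).

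**Figure D3:**
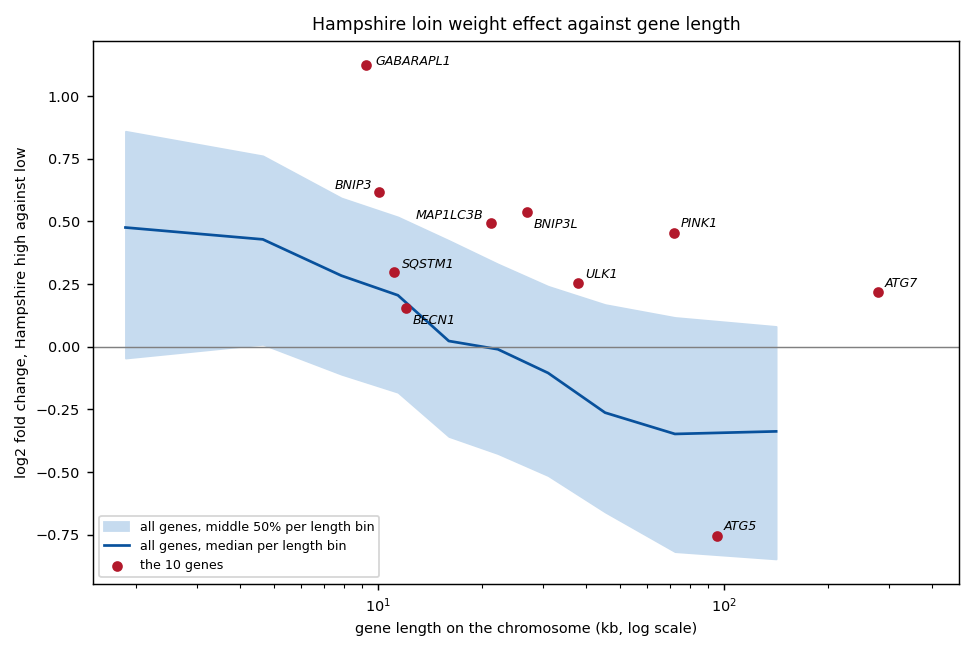
Log2 fold change between high and low loin weight in Hampshire (vertical axis) against gene length on the chromosome in kb (log scale). The line and band give the median and the middle 50% of all tested genes in 10 bins of length, and red points are the 10 genes. GABARAPL1, PINK1, MAP1LC3B, BNIP3L, BNIP3 and ULK1 lie above the band of all genes, and ATG5, BECN1 and SQSTM1 lie within it. ATG7, at 279 kb, lies to the right of the band, which ends at 142 kb.

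The wider pathway was described with lists of 97 genes, also chosen with earlier results known, of which 90 were matched and 89 tested in Hampshire. Of these, 9 were called higher and 18 lower, or 30.3%, against the 26.6% of all genes (12.0% higher and 14.6% lower). The ATG8 family was the list with the most genes called higher, 3 of 5, and none called lower. MAP1LC3A, a close relative of MAP1LC3B, rose from 98.5 ± 8.89 to 187 ± 20.5 CPM (SD, n = 3 each), a log2 fold change of 0.92 (SE 0.164, adjusted p = 0.00681). The remaining members of the family, GABARAP and GABARAPL2, stood at 0.46 (adjusted p = 0.0595) and 0.27 (adjusted p = 0.267) on the log2 scale and were not called. The ATG8 genes are similar in sequence, and reads shared between copies of the family could have been split by the counting.

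**Figure D4:**
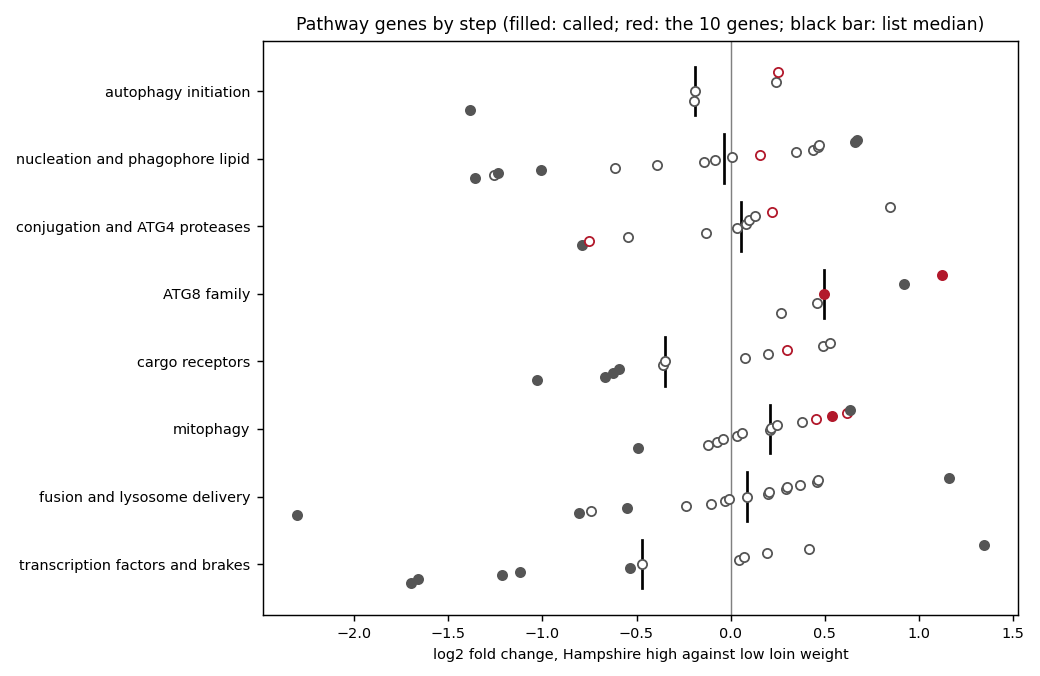
Log2 fold change between high and low loin weight in Hampshire (horizontal axis) of the 89 tested pathway genes, by step of the pathway. Filled points were called differentially expressed, red points are the 10 genes and black bars list medians, from 0.49 in the ATG8 family to -0.47 in transcription factors and brakes.

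The calls in each step below stand beside 12.0% of all genes called higher and 14.6% called lower. Initiation genes had 1 call, and nucleation genes had calls in both directions. Of 5 initiation genes, RB1CC1, the scaffold of the ULK1 complex, was called, and it fell from 123 ± 3.76 to 47.4 ± 3.98 CPM (log2 fold change -1.38, SE 0.146, adjusted p = 0.00138). Of 16 nucleation and lipid transfer genes, 2 were called higher and 3 lower. The lipid-mark readers WIPI2 and WDR45 rose by log2 fold changes of 0.67 and 0.66. The lipid transfer gene ATG2B (-1.24), the BECN1 partner UVRAG (-1.01) and RUBCN (-1.36), an inhibitor of that complex, were lower. Of 10 conjugation genes, ATG16L1, the partner of ATG5, was called lower (log2 fold change -0.79, SE 0.179, adjusted p = 0.0148).

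Of 11 cargo receptors, 4 were called lower and 0 higher, against 14.6% and 12.0% of all genes. The log2 fold change was above 0 in 5 of the 11. Among those called lower were the aggregate receptors NBR1 (-0.62) and WDFY3 (-1.03) and the endoplasmic reticulum receptor SEC62 (-0.66), all as log2 fold changes. Of 14 mitophagy genes, BNIP3L and PHB2, an inner membrane receptor, were called higher, the latter by a log2 fold change of 0.63. MFN2, which fuses mitochondria and is a substrate of PINK1, was called lower (-0.49). With the length trend removed, MFN2 stood at -0.15 (adjusted p = 0.494) and PHB2 at 0.25 (adjusted p = 0.27).

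Of 17 fusion and lysosome delivery genes, 1 was called higher and 3 lower. VAMP8, a SNARE of autophagosome and lysosome fusion, rose from 17.2 ± 1.80 to 38.6 ± 5.61 CPM (log2 fold change 1.16, SE 0.173, adjusted p = 0.00376). Its partner STX17 (-0.81), the tether EPG5 (-2.30) and the lysosomal membrane protein LAMP2 (-0.55) fell. EPG5 was near the limit of detection, at 0.42 CPM in high and 2.00 CPM in low pigs on average. Mean levels of RUBCN (1.31 CPM in high and 3.25 CPM in low pigs), UVRAG (2.50 and 5.06 CPM) and DEPP1 (3.66 and 1.42 CPM) were also low. Among transcription factors and brakes, 5 of 11 were called lower and 1 higher, against 14.6% and 12.0% of all genes. The 5 not called included FOXO1 (log2 fold change 0.07, adjusted p = 0.837) and TFEB (0.42, adjusted p = 0.0552), both named after their values were seen. FOXO3, the FOXO factor best known for driving autophagy genes in muscle, fell from 10.4 ± 0.858 to 3.21 ± 0.480 CPM (log2 fold change -1.70, SE 0.214, adjusted p = 0.00237). TP53INP2 (-1.66), which binds ATG8 proteins, and HIF1A (-1.12), which drives BNIP3 in hypoxia, also fell, and DEPP1 (1.34), a FOXO target, rose. Of the named pathway genes outside the 10, MAP1LC3A, RB1CC1, ATG2B, WDFY3, VAMP8, FOXO3, TP53INP2 and HIF1A kept their call in every fit without 1 pig and with the length trend removed. Over the processing settings that kept every pig, the log2 fold change of MAP1LC3A went down to 0.52 and its adjusted p up to 0.0412. That of WDFY3 shrank to -0.67 and that of VAMP8 to 0.80, while that of TP53INP2 stayed at -1.87 to -1.65. With the length trend removed, UVRAG, RUBCN, WDR45, ATG16L1, NBR1, SEC62, PHB2, MFN2, STX17, LAMP2 and DEPP1 lost it. In that fit the log2 fold changes of SEC62 (-0.62) and RUBCN (-1.36) were about as large as before, while those of MFN2 (-0.15) and WDR45 (0.32) were smaller. Genes without a length stayed uncorrected there, so an unchanged value may mean that no correction was made. In the 6 fits without 1 pig, WIPI2, UVRAG, RUBCN, MFN2 and PHB2 lost their call in 5, SEC62 and NBR1 in 4, DEPP1 and LAMP2 in 3, and EPG5, WDR45 and ATG16L1 in 2. In these lists, 15 pathway genes in place of 27 were called with the length trend removed, while the share of all genes called went from 26.6% to 19.0%. Without 1 pig, 10 to 25 pathway genes and 9.80% to 24.2% of all genes were called. The lowest count, 10, came without low pig 3, and the others under 18 were 12 without high pig 10, 15 without low pig 1, 16 without low pig 2 and 17 without high pig 9.

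In Pietrain, none of the 10 genes was called between the groups, and neither was any of all 12065 genes tested (0%). The study itself reported differentially expressed genes in Pietrain, more than in Hampshire, with DESeq2 at the same nominal thresholds. What this difference comes from was not tested. At an unadjusted p-value under 0.05 stood 1 member and 3.30% of all genes in edgeR. DESeq2 called 0 members and 1 gene in all. The member was ULK1, at 73.9, 71.7 and 63.3 CPM in low pigs 3, 5 and 8 and at 116, 75.0, 76.7 and 116 CPM in high pigs 1, 2, 6 and 7. Its groups did not overlap, though 2 high pigs lay just above the low pigs, and 4.59% of all genes did not overlap either. The log2 fold change of ULK1 was 0.50 (SE 0.218, adjusted p = 0.939).

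The genes called in Hampshire had Pietrain log2 fold changes from -0.05 to 0.34, and none passed the test. GABARAPL1 measured 15.8, 13.6 and 20.4 CPM in low and 17.5, 22.1, 20.6 and 21.9 CPM in high pigs, with a log2 fold change of 0.34 and a 95% interval from -0.14 to 0.81. MAP1LC3B measured 135, 221 and 189 CPM in low and 184, 155, 199.6 and 161 CPM in high pigs, with a log2 fold change of -0.01 (95% interval -0.45 to 0.42). For BNIP3L, low pigs had 32.8, 32.5 and 34.4 CPM and high pigs 23.5, 31.8, 45.2 and 25.5 CPM, with a log2 fold change of -0.05 (95% interval -0.57 to 0.48). High pigs spread to both sides of the low pigs for BNIP3L. All 3 intervals spanned 0 and overlapped their Hampshire intervals, which were 0.64 to 1.60 for GABARAPL1, 0.14 to 0.85 for MAP1LC3B and 0.17 to 0.91 for BNIP3L.

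The other members had Pietrain log2 fold changes from -0.22 to 0.27. SQSTM1 measured 312, 382 and 324 CPM in low and 417, 322, 403 and 450 CPM in high pigs (0.27). PINK1 measured 152, 179 and 223 CPM in low and 169, 258, 185 and 249 CPM in high pigs (0.26). BNIP3 was at 225, 203 and 224 CPM in low and 281, 198, 166 and 288 CPM in high pigs (0.14), so its high pigs lay on both sides of its low pigs. ATG7 was at 10.0, 9.18 and 8.47 CPM in low and 10.3, 7.97, 11.1 and 10.1 CPM in high pigs (0.13). ATG5 was at 9.77, 10.1 and 11.4 CPM in low and 10.4, 8.04, 10.1 and 7.55 CPM in high pigs (-0.18). BECN1 was at 41.6, 70.7 and 48.5 CPM in low and 51.8, 39.5, 47.7 and 40.8 CPM in high pigs (-0.22), the highest value being that of low pig 5. Of the 90 pathway genes tested in Pietrain, 0 were called and 4 had an unadjusted edgeR p-value under 0.05. These were ULK1, ATG16L2 (log2 fold change 1.01), CALCOCO1 (0.58) and FOXO3 (0.89), of which ATG16L2 and CALCOCO1 were named after their values were seen. Slow fibre markers summed to 27.7 CPM in low pig 5 and to at most 8271 CPM in the low group, and to 747 to 11159 CPM in the high group. No marker was called in Pietrain, and the part of fibre type was not tested.

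Whether the loin weight effect differed between Hampshire and Pietrain was tested directly, with all 13 pigs fitted together. None of the 10 genes passed, against 5.90% of 12831 genes at an adjusted p-value under 0.05. The largest difference was that of GABARAPL1, with 0.82 on the log2 scale (95% interval 0.19 to 1.45, adjusted p = 0.117), Hampshire minus Pietrain. BNIP3L followed with 0.62 (95% interval -0.03 to 1.27) and MAP1LC3B with 0.55 (95% interval -0.01 to 1.11). At an unadjusted p-value under 0.05 stood 1 member in edgeR with TMM, and 3 in edgeR with DESeq2 size factors and in DESeq2, with 0 called by any. Of all 12831 genes, 2835 stood there in edgeR with TMM. The calls in Hampshire and their lack in Pietrain are therefore not shown to differ between the breeds.

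Levels were also compared between the breeds within each loin weight group, with the same 13 pigs as in the comparisons above. Breed cannot be told apart from the separate count table of each breed or from anything else that differed between their runs. Among low pigs, 3 of 10 genes were called against 17.9% of all genes (7.84% higher in Hampshire and 10.1% lower). ATG7 was 1.86-fold higher in Hampshire (log2 fold change 0.90, adjusted p = 0.0120) and SQSTM1 1.61-fold higher (0.69, adjusted p = 0.0215). MAP1LC3B was lower, with a log2 fold change of -0.69 (adjusted p = 0.0291). Not called were, among others, BNIP3L (-0.64, adjusted p = 0.0601) and ULK1 (0.56, adjusted p = 0.0801). No member was called without Pietrain low pig 5 or low pig 8, where 1.23% and 0.842% of all genes were called. Without Hampshire low pig 2 or low pig 3, 1 member was called, with 0.828% and 3.78% of all genes. Without Pietrain high pig 6, 5 members and 24.1% of all genes were called. Over the fits without 1 pig, the log2 fold change ranged from 0.87 to 1.01 for ATG7, from 0.69 to 0.78 for SQSTM1 and from -0.81 to -0.53 for MAP1LC3B.

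Among high pigs, 4 of 10 genes were called against 46.8% of all genes (22.6% higher in Hampshire and 24.2% lower). ATG7 was 2.02-fold higher in Hampshire (log2 fold change 1.01, adjusted p = 0.000273), GABARAPL1 1.90-fold (0.93, adjusted p = 0.00195) and SQSTM1 1.69-fold (0.76, adjusted p = 0.00184). ATG5 was lower, with a log2 fold change of -0.95 (adjusted p = 0.00738). All 4 calls held without any single pig. MAP1LC3B, lower in Hampshire among low pigs, had a log2 fold change of -0.14 among high pigs (95% interval -0.52 to 0.24).

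**Figure D5:**
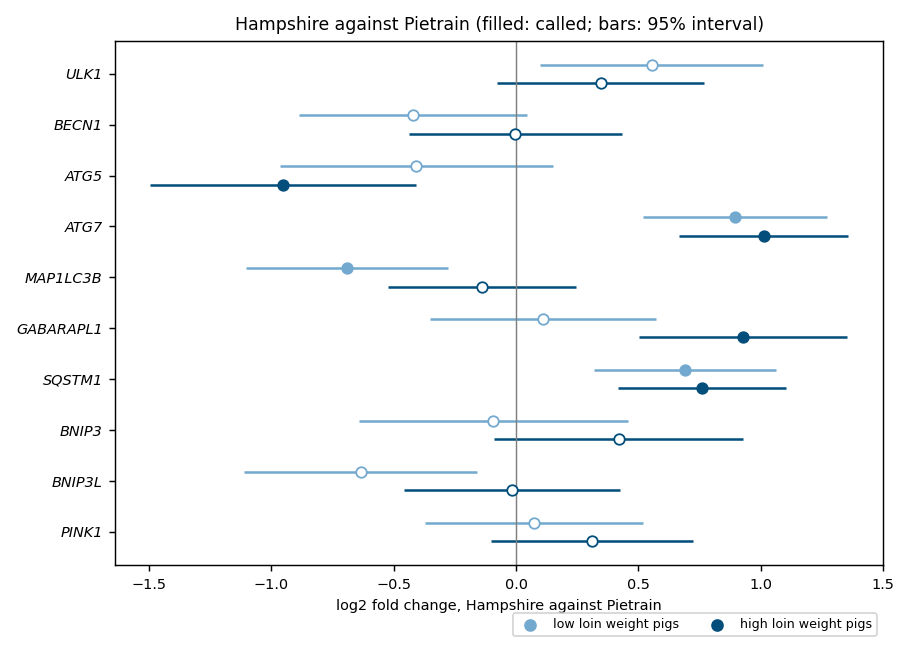
Log2 fold change of each of the 10 genes in Hampshire against Pietrain (horizontal axis) with its 95% interval, among low (light blue) and high (dark blue) loin weight pigs, filled where called. ATG7 and SQSTM1 are filled above 0 in both groups of pigs.

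The order of the 4 groups differed from gene to gene. For ATG7 and SQSTM1 it ran from Hampshire high over Hampshire low and Pietrain high to Pietrain low, and only the Pietrain groups overlapped. ULK1 had the same order, with Pietrain low apart from its neighbour and the rest overlapping. GABARAPL1 was highest in Hampshire high pigs, and the other groups overlapped their neighbours. MAP1LC3B and BNIP3L were lowest in Hampshire low pigs, apart from the rest, with overlap among the other groups. ATG5 ran the other way, with Hampshire high pigs lowest and apart. For BECN1, BNIP3 and PINK1 every group overlapped its neighbour in the order.

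For the genes called in Hampshire, the most similar profiles over the 13 pigs were sought among 9239 named genes tested in both breeds, by Pearson's r of log2 CPM. GABARAPL1 was most like TRAF3IP2 (r = 0.96), MAOA (0.94) and CEBPD (0.93). MAP1LC3B was most like NPM1 (0.93), HAUS2 (0.93) and UBE2B (0.92), and BNIP3L was most like DSTN (0.91), RCN1 (0.89) and RNF125 (0.89). These values describe pigs that share breed, loin weight group and count table, and carry no test.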

How the data were processed

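RNA-seq of longissimus lumborum muscle from 13 pigs was analysed from the raw counts of reads per Ensembl gene that the authors deposited, 1 table per breed and 1 column per pig, without normalization. The authors aligned single-end reads of an unstranded kit to Sscrofa10.2, so reads of a gene and of an antisense partner cannot be told apart. The submitters' processing notes name FastQC, STAR, RSEM and DESeq2, and the annotation release is not given in the sources used here. Symbols and positions came from the authors' tables of their own comparisons, whose fold changes, test statistics and p-values were not used. Of the gene identifiers, 7066 got a symbol from those tables and 6102 from a RefSeq table of Sscrofa11.1, used for names only. All 4 Pietrain pigs that the labels place in the high group were used, although the study's phenotype table gives fewer pigs for this group and does not name them.

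Each breed was tested with edgeR 4.0.16 in R 4.3.3 (TMM, filterByExpr by group, glmQLFit and glmQLFTest, Benjamini-Hochberg adjustment over all genes tested). Breed contrasts and the difference of effects used 1 fit over the 13 pigs. Standard errors were taken as the absolute log2 fold change over the square root of F, and intervals from the t distribution with the fit's degrees of freedom. Log2 CPM used 0.5 added counts. The p-values weigh group differences against the estimated spread between these pigs. The authors describe the pigs as unrelated and as picked for extreme loin weights. Counts per pig limit the precision of each level.

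Alternatives were DESeq2 1.42.0, DESeq2 size factors in edgeR, no filter, a minimum of 10 counts in each pig, removal of each pig's gene length trend (lowess, span 0.3), 1 fit over 13 pigs for the comparisons within breeds, calls without the fold change threshold, and fits without each pig. The tests were checked on simulated counts. All 10 members were named, and of each pathway list the genes called in Hampshire, at most 3 in each direction by adjusted p-value. The members and lists were chosen with earlier results of these data known. No sequences are shown and no exon lengths were used. Of 85 markers listed, 63 were matched, and the blood list (4 matched, 0 called in edgeR) is given here only. Figures were drawn with matplotlib 3.10.9.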

Additional observations from a re-analysis of the deposited data

How the results depend on the processing

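The Hampshire count of 3 members, beside 26.6% of all genes, was 1 with no filter (16.1% of all genes), 1 with at least 10 counts in every pig (28.5%), 1 in the fit over 13 pigs (19.8%) and 5 with the length trend removed (19.0%), and 1 to 3 without 1 pig (9.80% to 24.2%). DESeq2 and its size factors gave 3. The 27 pathway genes in Hampshire were 15 with the length trend removed and 10 to 25 without 1 pig. Members called between breeds in low pigs numbered 0 to 5 without 1 pig (0.828% to 24.1% of all genes), and in high pigs 4 to 5 (35.0% to 49.3%). In Pietrain and in the difference between breeds, 0 members were called under every alternative run. MAP1LC3B in Pietrain changed sign, to 0.0212 with at least 10 counts and 0.00756 with the length trend removed. Without 1 pig, log2 fold changes near 0 also crossed it. In Pietrain these were BECN1 (-0.34 to 0.00556), MAP1LC3B (-0.16 to 0.12) and BNIP3L (-0.25 to 0.0934). Between breeds in low pigs they were GABARAPL1 (-0.0203 to 0.33) and PINK1 (-0.0366 to 0.27). In high pigs they were BECN1 (-0.11 to 0.0630) and BNIP3L (-0.16 to 0.18). In the difference between breeds they were ATG7 (-0.0253 to 0.13) and SQSTM1 (-0.0822 to 0.14). Removing the filter moved the median of all genes in the difference between breeds to -0.13, and leaving out pigs moved it to at most -0.13. The cause of these changes was not tested. The length trend was not removed in the fits over 13 pigs, since 77.7% of their genes had a length, too few for that check. The fold change threshold does not alter a single gene's value. No paired analysis was possible because each pig was a separate, unrelated animal in 1 group, and pig numbers are labels within a breed. ATG5 had as few as 35 reads in a pig, which limits its precision.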

Other observations

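GABARAP was counted under 2 gene identifiers. The one the reference names (ENSSSCG00000017936) held 50610 reads over the 13 pigs and stood 0.46 higher on the log2 scale in Hampshire high pigs (adjusted p = 0.0595). The one the authors' table names (ENSSSCG00000027343) held 672 reads and stood 0.61 higher (adjusted p = 0.0911). The first was counted in the ATG8 list, and neither was called by edgeR.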
